A study of Macaca fascicularis with 4 samples.

Results

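Heat shock proteins and co-chaperones were examined in full-length RNA libraries of the cynomolgus monkey, Macaca fascicularis. The 69 members were chosen by gene symbol alone (the HSP, DNAJA, DNAJB, DNAJC, CCT and BAG series and CRYAB, without HSPG2, which encodes a matrix proteoglycan), out of 13982 genes named in the files. The series holds 4 libraries, 1 each of liver, muscle, oWAT and sWAT, and each was made from RNA of 5 monkeys pooled by tissue. The labels give no treatment, strain or age for these groups. WAT usually stands for white adipose tissue, and the letters o and s before it are not explained in the labels. There are no replicates, so every interval of a count, share or fold below is an exact 95% interval that covers counting error only. No difference has a replicate check. Values are whole reads assigned to a gene, also given as CPM, the count scaled to the library total in the usual way.

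Chaperones bind unfolded protein chains and keep them from clumping until they fold or are removed. Small heat shock proteins hold such chains without using ATP, HSP70 proteins bind and release them in an ATP-driven cycle that J-domain proteins (the DNAJ series) start and BAG proteins and HSP110 proteins help to end, HSP90 finishes the folding of many signalling proteins, and chaperonins enclose a chain in a ring. In striated muscle several of these proteins attend the contractile filaments, and in secretory tissue HSPA5 and HSP90B1 fold proteins in the endoplasmic reticulum (ER).

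The libraries held 383896 to 439872 counts assigned to genes. Each tissue's markers stood where the labels place them: all 9 hepatocyte markers had counts in liver, all 11 myofibre markers in muscle, and all 9 adipocyte markers in both oWAT and sWAT. Muscle also held adipocyte markers, at a summed 1284 CPM against 15832 in oWAT and 18734 in sWAT. In pooled tissue RNA, fewer cells of a type and less RNA per cell cannot be told apart.

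Of the 69 members, 59 had counts in all 4 libraries, 60 had at least 10 counts over the 4 libraries together (called measured here), and 34 had at least 10 counts in every library. The 9 members below that level, CCT6B, DNAJC4, DNAJC6, DNAJC12, DNAJC17, DNAJC24, HSPA2, HSPB11 and HSPBAP1, had 1 to 9 counts in all and are not described further. Together the members took 0.930% of the muscle counts (0.902 to 0.959), 0.8997% of the oWAT counts (0.871 to 0.930), 0.692% of the sWAT counts (0.666 to 0.718) and 0.591% of the liver counts (0.568 to 0.614). Muscle was highest under every scaling tried, though with library totals its interval overlapped that of oWAT. That rank rested on 4 members called in muscle, described below. The place of liver was not stable. With effective library sizes from the trimmed mean of M-values (TMM) the liver sum was 8809 CPM, above oWAT at 6680 and sWAT at 5696. With library totals the median log2 ratio of all 10127 measured genes ran from -0.98 (liver over oWAT) to 0.14 (oWAT over sWAT), and with TMM from -0.036 to 0.11. A liver level given by library totals is thus best read against that shift.

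**Figure D1:**
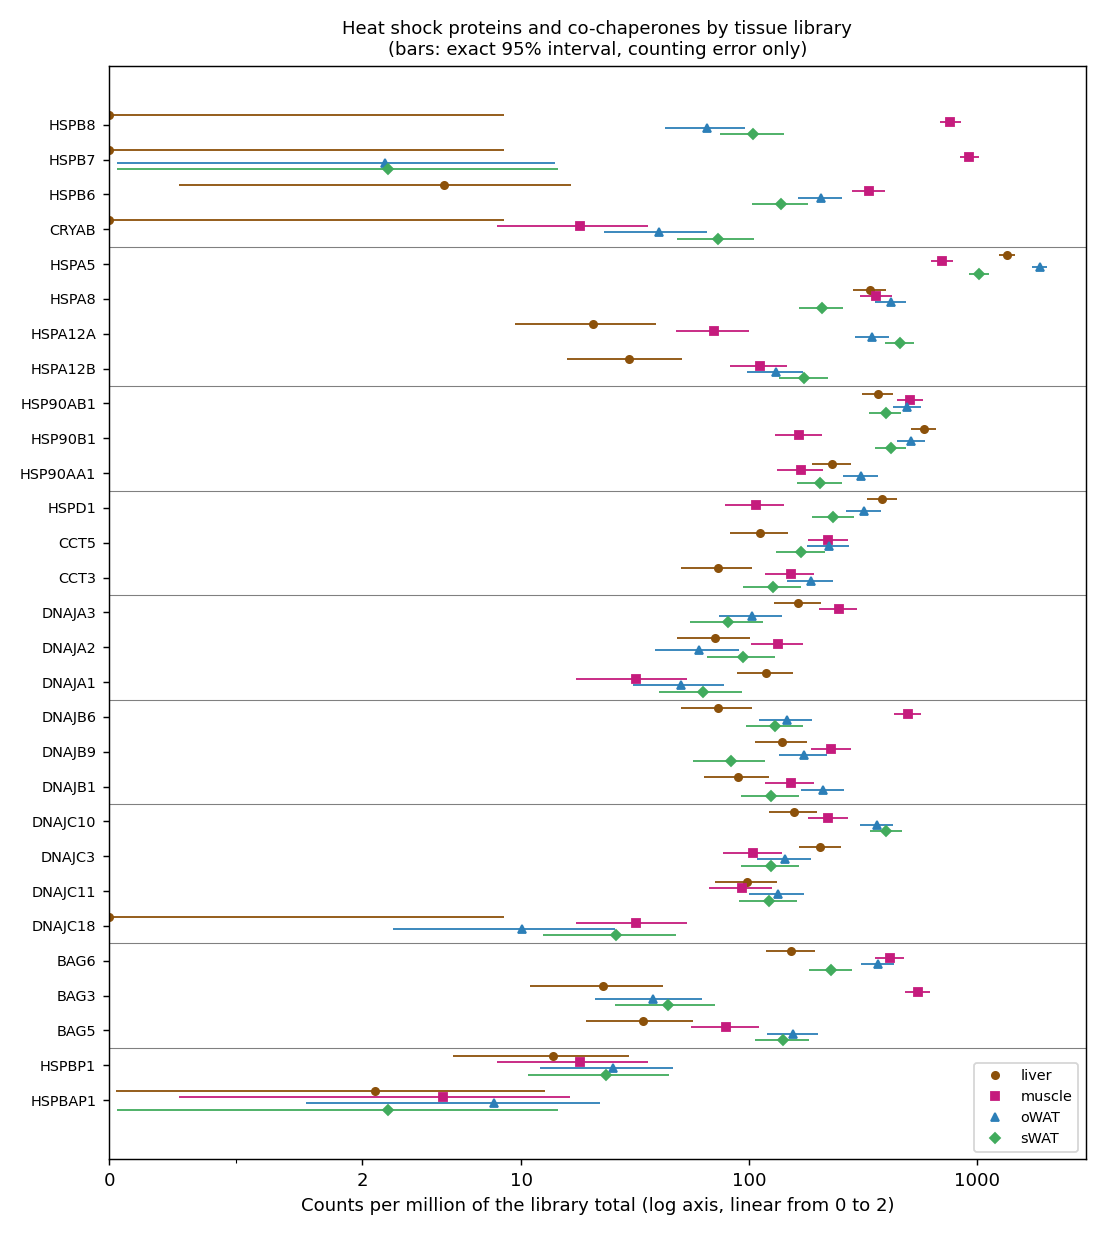
CPM (log axis, linear from 0 to 2) of the 29 members named by rule, grouped by family, in each of the 4 libraries; bars are exact 95% intervals for counting error. For HSPB7, HSPB8, BAG3 and DNAJB6 the muscle value lies more than 2-fold above that of every other library. For HSPA12A the oWAT and sWAT values lie more than 2-fold above liver and muscle.

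A gene was called higher in a tissue where it had at least 10 counts there and the lower bound of its fold exceeded 2 against each library it was compared with. In muscle 4 of 47 members that could be tested were called higher than in every other library (8.51%), beside 6.71% of all genes tested. They were the small heat shock proteins HSPB7 and HSPB8, the co-chaperone BAG3 and the J-domain protein DNAJB6. The share is close to that of all genes, so it is the identity of the 4 and the size of their folds, not their number, that describes muscle. Together these 4 made up 29.5% of all member counts in muscle (28.1 to 30.9), against 1.62% in liver, 2.80% in oWAT and 4.07% in sWAT. They were chosen by these same counts, so a larger share in muscle was fixed by the choice. Without them the member sum in muscle was 6563 CPM, below oWAT at 8745 and near sWAT at 6635, with liver at 5814. With TMM the sums without them were 7201 in muscle, 6493 in oWAT, 5464 in sWAT and 8666 in liver.

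HSPB7, a small heat shock protein of heart and skeletal muscle that binds filamin, had 408 counts in muscle (928 CPM), 1 in oWAT, 1 in sWAT and 0 in liver. Nearly all its reads came from muscle, with a ratio of 368 over oWAT (65.7 to 14572) and 356 over sWAT (63.6 to 14098). Against the floor of 3 counts that stands for 0 in liver, it was 135-fold higher, and the exact lower bound of the fold over liver was 110. HSPB8, which works with BAG3 in the disposal of damaged filament proteins, had 337 counts in muscle (766 CPM), 40 in sWAT, 26 in oWAT and 0 in liver. Unlike HSPB7 it was present in both fat libraries. Its muscle level was 7.35-fold over sWAT (5.29 to 10.5), 11.7-fold over oWAT (7.84 to 18.2) and 112-fold over the floor of 3 counts in liver.

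BAG3, a nucleotide exchange factor that links HSP70 to small heat shock proteins, had 242 counts in muscle (550 CPM), 17 in sWAT, 15 in oWAT and 10 in liver. Muscle stood 12.4-fold above sWAT, the nearest library (7.60 to 21.7), and the other libraries did not differ from one another beyond counting error. DNAJB6, a J-domain protein whose mutation causes a limb-girdle muscular dystrophy, had 219 counts in muscle (498 CPM), 58 in oWAT, 50 in sWAT and 32 in liver. Its fold over oWAT was 3.41 (2.54 to 4.63), the smallest of the 4 called members, and it lost the call when the fold had to exceed 4.

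**Figure D2:**
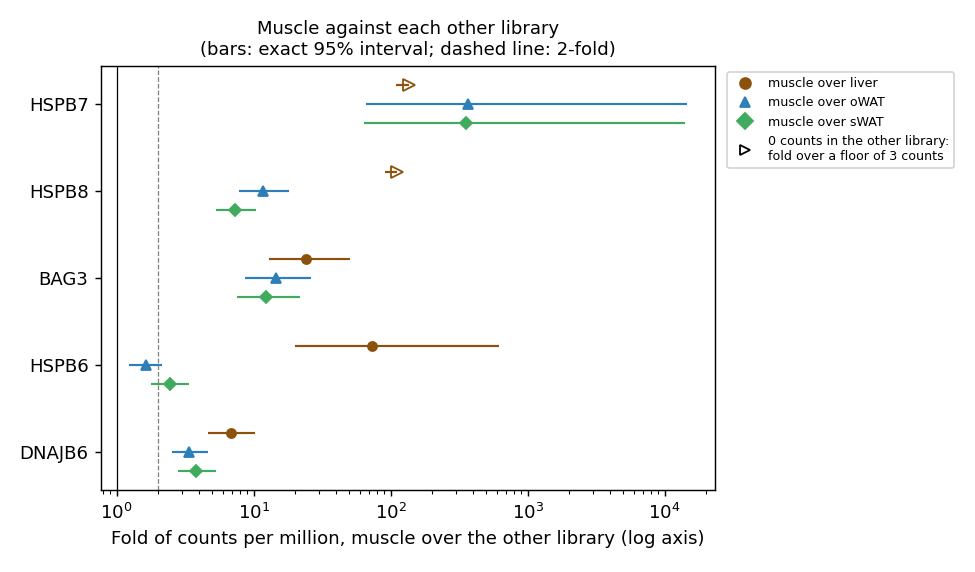
Fold of CPM in muscle over liver, oWAT and sWAT (log axis) for the 4 members called in muscle and HSPB6; bars are exact 95% intervals, open arrowheads are folds over a floor of 3 counts where the other library had 0, and the dashed line marks 2-fold. Every interval lies above 2 for HSPB7, HSPB8, BAG3 and DNAJB6, while for HSPB6 the intervals over oWAT and sWAT reach below it.

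Like these 4, the myofibre markers were highest in muscle, where they summed to 112401 CPM, against 129 to 135 CPM in each other library. CKM, NEB and MYL1 had 0 counts in liver and oWAT. Outside muscle, 4 of the 11 markers had counts in liver, 5 in oWAT and 7 in sWAT. HSPB8 ran from 0 in liver to 104 CPM in sWAT. Some immediate early genes, which respond to handling and stress, were also high in muscle: FOS had 163 counts in muscle, 79 in sWAT, 26 in oWAT and 4 in liver, and NR4A1 had 122, 5, 11 and 1 in the same order. Of 10 such genes in the files, 5 had enough counts in muscle to be tested, and all 5 had their highest level there. A filter on muscle counts favours genes that are high in muscle, so this count is not evidence of its own. Besides FOS and NR4A1 they were DUSP1 (295 counts in muscle, 123 in sWAT, 83 in oWAT and 47 in liver), ATF3 (23, 8, 14 and 1) and EGR1 (12, 1, 4 and 0). NR4A1 was the 1 called. The others were too thinly covered in muscle to test and none was highest there, such as ZFP36 with 3 counts in muscle, 17 in sWAT, 11 in oWAT and 5 in liver. The part of the myofibre markers or of the immediate early genes in the result was not tested. In the RefSeq annotation HSPB7 and BAG3 overlap another gene model, and reads from such a neighbour cannot be told apart here; HSPB8 and DNAJB6 do not overlap one.

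The remaining small heat shock proteins behaved in other ways. HSPB6, also called HSP20, which is abundant in all kinds of muscle, had 148 counts in muscle (336 CPM), 82 in oWAT (207 CPM), 53 in sWAT (138 CPM) and 2 in liver. It was lower in liver than in each other library, the nearest being sWAT at 30.2-fold (7.96 to 256), while muscle exceeded oWAT by only 1.63-fold (1.24 to 2.16). Smooth muscle and pericyte markers had a summed 368 CPM in liver, 1273 in muscle, 2443 in sWAT and 1691 in oWAT, and their part in the HSPB6 values was not tested. CRYAB (alpha-B crystallin), a major small heat shock protein of lens and striated muscle, had 28 counts in sWAT, 16 in oWAT, 8 in muscle and 0 in liver. Its level in this muscle library was thus below that of sWAT, which was 4.01-fold higher (1.78 to 10.2). HSPB1 (HSP27) had 9 counts in muscle, 3 in sWAT and 2 each in liver and oWAT, too few to place. The sources used here do not give whether the libraries were selected for length, and how well short transcripts such as these were captured was not tested; this bears on the shares of the whole family.

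The liver library carried almost no small heat shock protein reads. The family was grouped by symbol alone and so holds HSPB11, which gave 2 of its 6 counts in liver. The 6 members of the family took 0.232% of the member counts in liver (0.0852 to 0.504), 3.61% in oWAT (3.03 to 4.28), 4.75% in sWAT (3.97 to 5.62) and 22.3% in muscle (21.02 to 23.6). These shares are taken within a library and do not depend on how libraries are scaled to each other.

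**Figure D3:**
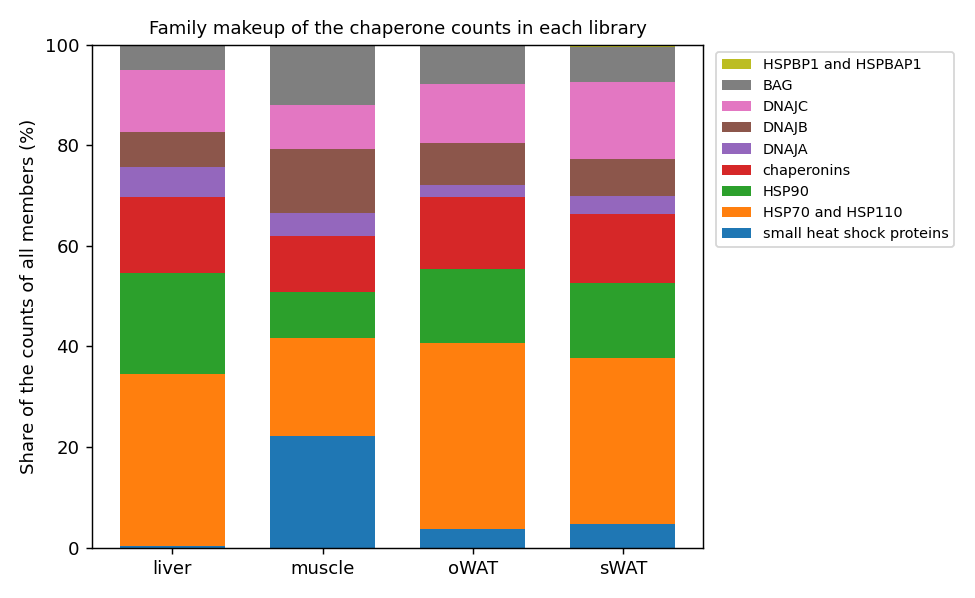
Share of all member counts (%) taken by each family in the 4 libraries, stacked to 100. Small heat shock proteins take 22.3% in muscle and 0.232% in liver, and the HSP70 and HSP110 family takes 34.3% in liver, 37.1% in oWAT, 33.0% in sWAT and 19.5% in muscle.

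No member was called higher in liver than in each other library (0 of 37 tested, beside 10.8% of all genes). With TMM or DESeq2 scaling DNAJA1 gained the call, which is 1 of 37 beside 15.6% of all genes with TMM and 15.4% with DESeq2 scaling. Of 41 members tested, 3 were lower in liver than in each other library (7.32%, beside 11.8% of all genes): HSPB6, HSPB8 and HSPA12B. HSPA12B, a divergent HSP70 protein of endothelial cells, had 67 counts in sWAT (175 CPM), 52 in oWAT (131), 49 in muscle (111) and 13 in liver (29.7). Its smallest fold over liver was 3.75, in muscle (2.003 to 7.53), and the call was lost with TMM (2.20 over liver in oWAT, leaving 2 members beside 6.11% of all genes), with DESeq2 scaling (2, beside 6.22%), with totals free of the most abundant genes and with a 99% interval. The order of HSPA12B above liver was not settled. By library totals oWAT was 1.18-fold over muscle (0.781 to 1.77), or 0.796 with TMM, and sWAT was 1.33-fold over oWAT (0.913 to 1.95). The endothelial markers had a summed 3920 CPM in sWAT, 2230 in oWAT, 1089 in muscle and 293 in liver, and their part in the HSPA12B values was not tested.

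Chaperones of the ER took a larger part of the member reads in liver than in muscle. The 7 ER members (HSPA5, HSP90B1, HSPA13, DNAJB9, DNAJC1, DNAJC3 and DNAJC10, grouped after their values were known) took 43.04% of member counts in liver (41.1 to 45.0), 35.6% in oWAT (34.1 to 37.2), 31.5% in sWAT (29.8 to 33.3) and 16.4% in muscle (15.3 to 17.6). HSPA5 and HSP90B1 carried most of this, with 851 of the 1113 ER counts in liver; the other 5 took 10.1% of member counts in liver (8.99 to 11.4) and 7.09% in muscle (6.32 to 7.91). By gene and with library totals, 3 of the 7 had a higher level in liver than in muscle, with a median log2 ratio of -0.066. Relative to the median of all measured genes (-0.48), 5 of the 7 lay above it. The group is not a full list of ER members. For example, DNAJC18, also a protein of the ER membrane, was not in it and had 0 counts in liver and 14 in muscle. Muscle remained lowest once its 4 called members were set aside in every library, at 23.3% (21.8 to 24.9) against 43.8% in liver, 36.7% in oWAT and 32.9% in sWAT.

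HSPA5 (BiP), the HSP70 of the ER, had 748 counts in oWAT (1885 CPM), 595 in liver (1360), 392 in sWAT (1021) and 310 in muscle (705). It was 1.93-fold higher in liver than in muscle (1.68 to 2.22) and 2.67-fold higher in oWAT than in muscle (2.34 to 3.06; 1.81 with TMM), but the order of liver and oWAT turned with scaling: oWAT was 1.39 times liver with library totals and 0.691 times with TMM. HSP90B1 (GRP94), the HSP90 of the ER, had 256 counts in liver (585 CPM), 205 in oWAT (517), 161 in sWAT (419) and 73 in muscle (166). Muscle was the low library, with liver 3.53-fold above it (2.71 to 4.64), oWAT 3.11-fold (2.37 to 4.12) and sWAT 2.53-fold (1.90 to 3.38). Under TMM the last 2 of these folds were 2.11 and 1.897.

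Among the J-domain proteins of the ER, DNAJC3, an HSPA5 partner that also restrains the kinase PERK, had 90 counts in liver, 57 in oWAT, 48 in sWAT and 46 in muscle. Liver was 1.97-fold above muscle (1.36 to 2.87) and the other 3 did not differ beyond counting error. DNAJC10 (ERdj5), a reductase that opens disulfide bonds of misfolded proteins, had 154 counts in sWAT, 145 in oWAT, 98 in muscle and 69 in liver, so here the fat libraries were the high ones, sWAT 2.54-fold over liver (1.90 to 3.43). That fold was 1.41 with TMM. DNAJB9 (ERdj4), a brake on the stress sensor IRE1, had 101 counts in muscle, 69 in oWAT, 61 in liver and 32 in sWAT. Its muscle level was 2.75-fold above sWAT (1.83 to 4.24).

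**Figure D4:**
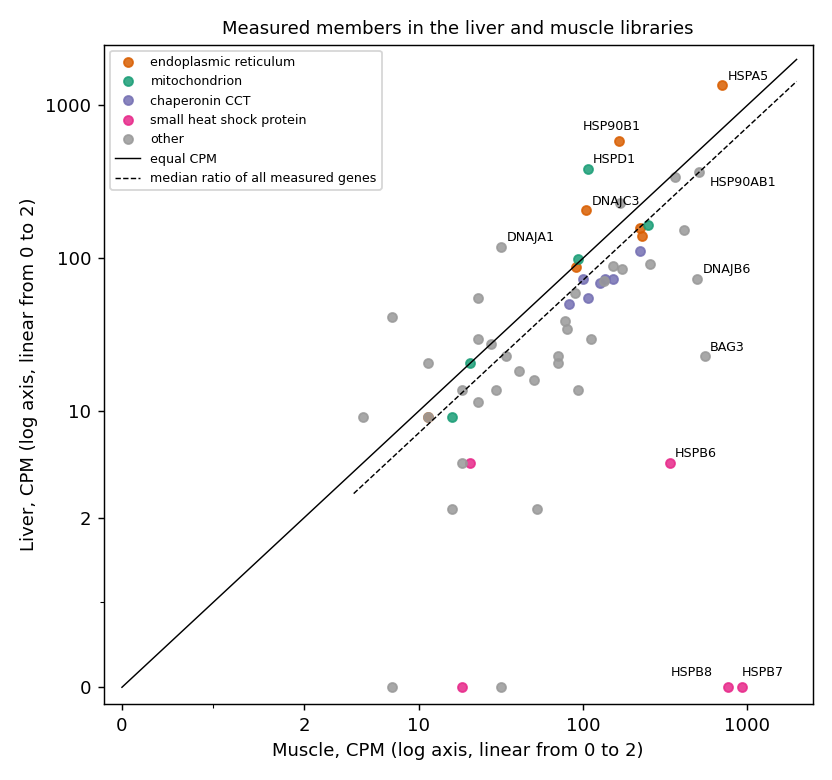
CPM in liver against CPM in muscle (both axes log, linear from 0 to 2) for the 60 measured members, coloured by compartment or family; the solid line marks equal CPM and the dashed line the median ratio of all 10127 measured genes. HSPA5, HSP90B1, DNAJC3, HSPD1 and DNAJA1 lie above both lines, and HSPB7, HSPB8, HSPB6, BAG3 and DNAJB6 lie below both.

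In direct pairing of liver and muscle, counted after the data had been seen, 3 of 37 members were higher in liver (DNAJA1, HSP90B1 and HSPD1), beside 17.7% of all genes, and 10 of 47 in muscle, beside 23% of all genes. With TMM the counts were 5 (HSPA5 and DNAJC25 added, beside 21.8%) and 8 (BAG6 and HSPA12B lost, beside 16.1%). Besides HSPB6, HSPB7, HSPB8, BAG3 and DNAJB6, the 10 were BAG6, DNAJB4, DNAJB5, DNAJC18 and HSPA12B. Of the 8 measured DNAJB genes, DNAJB4, DNAJB5 and DNAJB6 were called in this pairing. The log2 ratios of liver to muscle for the 8 ran from -3.96 to -0.55, beside a median of -0.48 over all measured genes. For DNAJB2, DNAJB12 and DNAJB14 the interval of the fold included 1, as for DNAJB2 at 1.49 for muscle over liver (0.886 to 2.55).

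DNAJA1, a farnesylated partner of HSP70 in the cytosol, had 52 counts in liver (119 CPM), 24 in sWAT, 20 in oWAT and 14 in muscle. Liver stood above the rest, 1.90-fold over sWAT (1.15 to 3.22) and 3.73-fold over muscle (2.04 to 7.30), and the other 3 libraries did not separate. DNAJB1 (HSP40), a partner of HSP70 in protein disaggregation, had 84 counts in oWAT, 67 in muscle, 48 in sWAT and 39 in liver. DNAJB1 thus took 42.9% of the reads of this pair in liver (32.5 to 53.7) against 82.7% in muscle (72.7 to 90.2) and 80.8% in oWAT (71.9 to 87.8), with sWAT between at 66.7% (54.6 to 77.3). DNAJA2 had 59 counts in muscle, 36 in sWAT, 31 in liver and 24 in oWAT, and muscle was 2.22-fold over oWAT (1.36 to 3.73).

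Other J-domain genes with their top count in muscle were thinly covered. DNAJB5 had 23 counts in muscle, 5 in oWAT, 1 in sWAT and 1 in liver, and it gained the muscle call with TMM (5 members called, beside 7.59% of all genes) and with DESeq2 scaling (5, beside 7.4%). DNAJB4 had 41 counts in muscle, 19 in sWAT, 17 in oWAT and 6 in liver, a fold of 1.88 over sWAT (1.07 to 3.44). DNAJC18, a J-domain protein of the ER membrane, had 14 counts in muscle, 10 in sWAT, 4 in oWAT and 0 in liver. The exact interval for 0 counts there reaches 8.43 CPM.

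HSPA12A, the other divergent HSP70 protein, was the 1 member called higher in both WAT libraries than in liver and muscle (1 of 45 tested, 2.22%, beside 4.22% of all genes). It had 176 counts in sWAT (458 CPM), 138 in oWAT (348 CPM), 31 in muscle (70.5 CPM) and 9 in liver (20.6 CPM). The smallest of the 4 folds was 4.93, oWAT over muscle (3.32 to 7.54), and it was 3.34 with TMM. Adipocyte markers, which had 1284 CPM in muscle and 103 in liver, moved with it, and their part was not tested. No member was called lower in both WAT libraries (0 of 36, beside 0.612% of all genes); DNAJA3 gained that call with TMM (1 of 36, beside 1.41% of all genes) and with DESeq2 scaling (beside 1.38%).

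Between the fat libraries no member was called in either direction: 0 of 49 higher in oWAT, beside 1.43% of all genes, and 0 of 47 higher in sWAT, beside 0.767%. With the looser demand that the interval exclude a fold of 1, 12 members were higher in oWAT (24.5% of those tested, beside 16.1% of all genes) and 1, HSPA12A, in sWAT (2.13%, beside 8.99%). The 12 were HSPA5, HSPA8, HSP90AA1, HSPD1, HSPA4, HSPB6, DNAJB1, DNAJB2, DNAJB9, DNAJC7, BAG6 and CCT3. With TMM 7 remained in oWAT (beside 10.7% of all genes), CCT3, DNAJC7, HSPA4, HSPB6 and HSPD1 being lost, and 4 were higher in sWAT (CRYAB, HSPA12A, HSPA12B and HSPB8, beside 13% of all genes). Cell type markers also differed between these libraries: mesothelial markers summed to 3901 CPM in oWAT (6 of 6 with counts) and 0 in sWAT, fibroblast markers to 24075 and 82220 CPM, and endothelial markers to 2230 and 3920 CPM. Their part in these differences was not tested. HSPA8 (HSC70), the constitutive HSP70 of the cytosol, had 166 counts in oWAT, 159 in muscle, 148 in liver and 80 in sWAT, so sWAT was the low library, with oWAT 2.01-fold above it (1.53 to 2.66). HSPA5 was 1.85-fold higher in oWAT than in sWAT (1.63 to 2.09), and 1.66-fold with TMM. HSPA12A was 1.32-fold higher in sWAT (1.05 to 1.66). The median log2 ratio of oWAT to sWAT was 0.20 over the 60 measured members and 0.14 over all measured genes. The interval of the member median (-0.048 to 0.42) was taken across genes, so it measures neither counting error nor spread between animals.

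The cytosolic HSP90 genes varied less than the small heat shock proteins. HSP90AB1, the constitutive form, had 224 counts in muscle, 196 in oWAT, 161 in liver and 153 in sWAT, and its folds between libraries by totals did not exceed 1.38 (muscle over liver, 1.13 to 1.71). With TMM liver stood above both fat libraries instead, with oWAT at 0.669 and sWAT at 0.599 of its level. HSP90AA1, the inducible form, had 123 counts in oWAT, 101 in liver, 79 in sWAT and 74 in muscle. Its share of the reads of both forms was 24.8% in muscle (20.03 to 30.1), 34.1% in sWAT (28.0 to 40.5), 38.5% in liver (32.6 to 44.7) and 38.6% in oWAT (33.2 to 44.1); the muscle interval overlapped that of sWAT and lay below those of liver and oWAT. HSP90B1 set against HSP90AB1 gave a wider spread, 24.6% in muscle (19.8 to 29.9), 51.1% in oWAT, 51.3% in sWAT and 61.4% in liver (56.5 to 66.1). The corresponding share of HSPA5 beside HSPA8 was 66.1% in muscle (61.6 to 70.4) and 80.1% to 83.1% in the other 3 libraries. Such shares are read only between libraries, since the genes differ in transcript length.

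**Figure D5:**
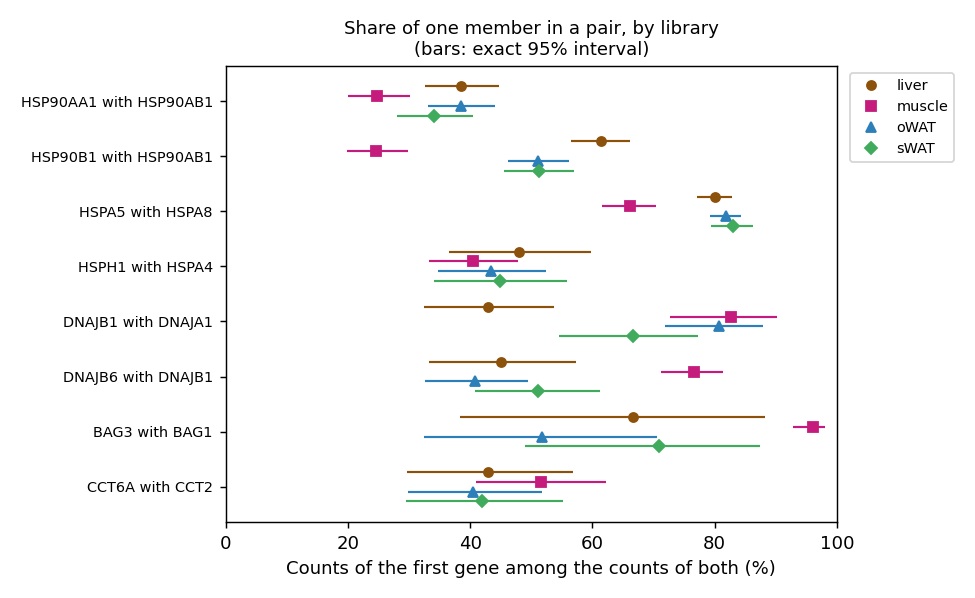
Counts of the first gene as a share (%) of the counts of both genes, for 8 pairs in the 4 libraries; bars are exact 95% intervals. Muscle stands apart from the other 3 libraries for HSP90B1, HSPA5, DNAJB6 and BAG3, while for HSPH1 and CCT6A all 4 intervals overlap.

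DNAJB6 took 76.6% of the reads it shares with DNAJB1 in muscle (71.2 to 81.4) against 40.8% to 51.02% elsewhere, and BAG3 took 96.03% of the BAG3 and BAG1 reads in muscle (92.8 to 98.1) against 51.7% to 70.8%. HSPH1 (HSP110) and HSPA4, both exchange factors of HSP70, kept similar proportions, HSPH1 taking 40.4% to 48.1% of their reads, with intervals that all overlapped. A smaller difference than these intervals allow was not detectable at this depth.

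The 7 measured subunits of CCT, the cytosolic ring that folds actin and tubulin, kept close to each other: with library totals their log2 ratios of liver to muscle ran from -1.05 to -0.45 and of oWAT to sWAT from 0.14 to 0.73. CCT5, a subunit of that ring, had 98 counts in muscle, 89 in oWAT, 65 in sWAT and 49 in liver, and CCT3 had 67, 74, 49 and 32 in the same order. Relative to all genes, 7 of 7 subunits lay above the median for muscle over oWAT and for muscle over sWAT, and 1 of 7 for liver over muscle.

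HSPD1 (HSP60), the chaperonin of the mitochondrial matrix, differed from CCT in muscle, while its ratio of oWAT to sWAT (1.37-fold) lay within the range of the CCT subunits. It had 168 counts in liver (384 CPM), 127 in oWAT (320), 90 in sWAT (234) and 47 in muscle (107). Muscle was lowest, with liver 3.59-fold above it (2.59 to 5.08), oWAT 2.995-fold (2.13 to 4.28) and sWAT 2.19-fold (1.53 to 3.19); with TMM the sWAT fold was 1.65. Not all mitochondrial members shared this. DNAJA3 (TID1), the J-domain partner of the mitochondrial HSP70, had 109 counts in muscle (248 CPM), 72 in liver, 41 in oWAT and 31 in sWAT, and muscle was 3.07-fold above sWAT (2.04 to 4.73). DNAJC11, of the mitochondrial contact site, had 53, 47, 43 and 41 counts in oWAT, sWAT, liver and muscle, with all intervals of its folds including 1. No member was called lower in muscle than in each other library (0 of 35, beside 2.2% of all genes).

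Of the other BAG proteins, BAG6, which guards tail-anchored proteins before membrane insertion, had 182 counts in muscle, 146 in oWAT, 88 in sWAT and 67 in liver, and muscle was 2.70-fold over liver (2.03 to 3.63), or 1.99-fold with TMM. BAG5 had 62 counts in oWAT, 54 in sWAT, 35 in muscle and 15 in liver. The fat libraries were the high ones for BAG5, 4.56-fold and 4.10-fold over liver (2.56 to 8.63 and 2.28 to 7.83), which TMM lowered to 2.27 for both. HSPBP1, an HSP70 exchange factor, had 6 to 10 counts per library.

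In all, 20 of the 54 members that had at least 10 counts in some library were called in at least 1 of the pairings of libraries (37%, beside 47.2% of all genes). Pairing fat with liver gave 7 of 49 members higher in oWAT (beside 25.8% of all genes), 7 of 47 in sWAT (beside 24.2%) and 0 of 37 higher in liver than in either (beside 12.9% and 13.6%), all with library totals. With TMM the split turned: 4 of 49 were higher in oWAT than in liver (beside 9.95%) and 4 of 47 in sWAT (beside 11.8%), namely CRYAB, HSPA12A, HSPB6 and HSPB8 in both. In the other direction 3 of 37 were then higher in liver than in oWAT (DNAJA1, DNAJA3 and DNAJC3, beside 20.5%) and 8 of 37 higher than in sWAT (those 3 with DNAJB2, HSP90B1, HSPA5, HSPA8 and HSPD1, beside 20.6%). Pairing fat with muscle gave 4 of 47 members higher in muscle than in oWAT (beside 8.3%) and 7 of 47 higher than in sWAT (beside 9.23%), against 4 of 49 higher in oWAT (beside 11.4%) and 1 of 47 higher in sWAT (beside 11.2%). With TMM these became 8 in muscle against oWAT (beside 12.3%) and 10 against sWAT (beside 12.5%), with HSPA12A as the 1 member higher in oWAT (beside 5.04%) and in sWAT (beside 5.87%). These pairings share libraries and are not independent of each other.

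Genes of the chaperone network outside the members were taken from 8 lists with 119 genes, of which 96 were in the files and 86 were measured. The list of myosin and filament folding had 7 of 8 tested genes higher in muscle than in each other library, beside 6.71% of all genes; it was made of muscle genes with earlier results known, so this count is not evidence of its own. SMYD1, a partner of the myosin chaperone, had 368 counts in muscle and 0 in the others, at least 107-fold higher than in sWAT; UNC45B, the myosin chaperone itself, had 255 against 0 (at least 74.2-fold), and TRIM54, a ubiquitin ligase of the sarcomere, 91 against 0 (at least 26.5-fold). SYNPO2 and FLNC, partners of BAG3 in filament turnover, had 525 and 248 counts in muscle, 7 and 43 in oWAT, 15 and 40 in sWAT, and 1 and 0 in liver. SYNPO2 in muscle was 30.5-fold over sWAT (18.3 to 55.0), and FLNC 5.20-fold over oWAT (3.75 to 7.37). The myofibre markers were also highest in muscle. Outside it they summed to 129 to 135 CPM in each library, from markers that differed between libraries. Their part in the values of these genes was not tested.

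The other lists held few called genes. All calls of network genes named here are by library totals. Over all lists 13 genes were called that way and 16 with TMM, and which of the named genes kept their calls with TMM is not given. Among stress transcription factors ATF5, a factor of the mitochondrial stress response, was higher in liver with 110 counts against 23 in sWAT, 22 in oWAT and 6 in muscle (4.20-fold over sWAT, 2.66 to 6.89), and HSF2, a heat shock factor, was lower in liver with 3 counts against 48 in muscle, 25 in sWAT and 22 in oWAT. HSF1, the main heat shock factor, had 58 counts in oWAT, 51 in muscle, 29 in sWAT and 24 in liver and was not called. The lists of chaperonin partners, mitochondrial chaperones and proteases, and proteasome and ubiquilin genes had 0 called in any of the 8 comparisons.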

How the data were processed

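The files deposited by the authors hold whole-number counts per gene, not normalized, and a gene not listed was taken as 0. Per the labels' protocols, RNA of 5 monkeys was pooled per tissue and read on PacBio Sequel II. The submitters' processing notes list minimap2 2.24. Not given in the sources used here are the build, annotation, read filters, size selection, use of strand, and what was done with reads that fit similar genes or pseudogenes. An entry naming no gene (14.3% to 19.5% of each library) was left out. Totals were 439872 in muscle, 437587 in liver, 396797 in oWAT and 383896 in sWAT. Groups came from the labels; the file names of oWAT and sWAT carry other abbreviations.

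Folds are ratios of CPM with exact 95% Clopper-Pearson intervals from the binomial share of the 2 counts; the reads carry no molecular identifiers here, so intervals and the floor of 3 counts cover counting error only. A call needed 10 or more counts on the higher side and a bound above 2 in every pairing; no p-values were computed. Medians used a pseudocount of 0.5. Named were all called members, the 3 with the highest summed CPM per family, and those at 0 in a library with at least 10 counts in another; BAG1, CCT6A, DNAJB4, DNAJB5, HSPA4, HSPB1, HSPH1 and the unmeasured members were added after their values were seen, as were the lists of called members by pairing. Of the network lists, the called genes with the largest bounds were named, and HSF1 beside them. Members and lists were chosen with earlier results of these data known. Of 13 planned gene pairs 8 are given, as 2 had too few counts and 3 include a gene not analysed here. Of the members, 68 matched a symbol of the RefSeq table of T2T-MFA8v1.1, where 29 overlap another gene model, among them BAG3, HSPB7 and HSPA12A; without strand such reads cannot be told apart. The planned search of promoter and protein sequences was not run. Alternatives were TMM (edgeR 4.0.16) and DESeq2 1.42.0 scaling factors (R 4.3.3) and the settings in the closing section; edgeR and DESeq2 gave scaling factors alone. Python 3.11.15, NumPy 2.4.6, pandas 2.3.3, SciPy 1.17.1 and matplotlib 3.10.9 were used.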

Additional observations from a re-analysis of the deposited data

How the results depend on the processing

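Of the 8 calls of single members (4 in muscle, 3 in liver, 1 in WAT), 8 held with a minimum of 20 counts, with none, and after thinning to the smallest library, and 7 with TMM, DESeq2 scaling, totals without the 10 most abundant genes, or a 99% interval, HSPA12B being the one lost each time. With a fold bound of 4 the calls of HSPA12A, HSPA12B and DNAJB6 were lost, leaving 5, and the WAT count fell to 0. With TMM and with DESeq2 scaling, liver gained 1 higher member (DNAJA1) and WAT 1 lower member (DNAJA3). With a fold bound of 1 the counts were 2 higher and 11 lower in liver, 10 higher and 4 lower in muscle, 4 higher and 1 lower in WAT, 12 higher in oWAT and 1 higher in sWAT, beside 16.9%, 32.8%, 13.9%, 10.9%, 21.1%, 1.94%, 16.1% and 8.99% of all genes in that order; the network genes called were 44 in place of 13, and 8 with a bound of 4. The summed CPM of the members was 10209 in muscle, 8809 in liver, 6680 in oWAT and 5696 in sWAT with TMM. In the same order it was 10100, 8703, 6675 and 5832 with DESeq2 scaling, and 11717, 7850, 9856 and 8165 with totals free of the 10 most abundant genes. Median log2 ratios of the members turned positive for liver over oWAT (0.20 with TMM, 0.18 with DESeq2) and over sWAT (0.29 and 0.24), from -0.81 and -0.57, and for muscle over oWAT (0.37 and 0.35), from -0.20. Added after seeing the data, TMM in single pairings gave 5 members higher in liver than in muscle, 3 than in oWAT and 8 than in sWAT, 4 higher in oWAT and 4 in sWAT than in liver, 8 higher in muscle than in oWAT and 1 the other way, and, with a fold bound of 1, 7 higher in oWAT and 4 in sWAT. These moves follow from the scaling itself, which shifts all genes alike. No paired analysis was possible because each tissue has 1 library. Members under about 10 counts cannot be placed at this depth.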

Other observations

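SERPINH1 (HSP47), the collagen chaperone of the ER, had 585 counts in oWAT, 444 in sWAT, 213 in muscle and 14 in liver. With library totals it was the 1 gene of the ER folding list called higher in both WAT libraries, at 2.39-fold for sWAT over muscle (2.02 to 2.83). It was also lower in liver than in each other library. TMM lowers folds of fat over muscle for every gene, the bound here lies close to 2, and the TMM fold of SERPINH1 is not given. Fibroblast markers summed to 82220 CPM in sWAT, 24075 in oWAT, 21240 in muscle and 391 in liver, and their part in the SERPINH1 values was not tested. FKBP5, a co-chaperone of HSP90 that glucocorticoids induce, had 146 counts in muscle, 87 in sWAT, 73 in oWAT and 24 in liver. Its smallest fold over liver by library totals was 3.35, in oWAT (2.09 to 5.56), and TMM lowers folds of oWAT over liver for every gene, FKBP5 included. Other HSP90 co-chaperones of steroid receptors differed from it: FKBP4 had 15 counts in sWAT, 22 in oWAT, 24 in muscle and 32 in liver, and PTGES3 had 51 or 52 in every library.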
